A study of Mus musculus with 10 samples.

Results

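miR-28a and miR-151 are microRNAs of 2 loci whose hairpins are grouped in 1 family, and both arms of each hairpin were examined: mmu-miR-28a-5p, mmu-miR-28a-3p, mmu-miR-151-5p and mmu-miR-151-3p, written below without the species prefix. These 4 members were taken by name from the microRNA class of the count table, which holds 2015 features, 1302 of them mature microRNAs and 713 hairpin transcripts. Small RNA was sequenced from CD43- B-cells of the spleen of *wt* mice, of 3′RR-deficient mice, in which the regulatory region 3′ of the immunoglobulin heavy chain (IgH) genes is missing, and of Eµ-deficient mice, which lack the Eµ enhancer of the same locus. The cells were kept for 2 days in growth medium without stimulus (non-stimulated, NS) or with lipopolysaccharide (LPS) at 5 µg/ml, and each library was made from pooled cells of 2 mice. *wt* and 3′RR-deficient cells gave 2 NS and 2 LPS libraries each, and Eµ-deficient cells gave 1 of each, 10 in all.

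The study's methods name no Cre driver or inducible allele for either line, and nothing in them limits the deletions to B-cells. The Eµ-deficient line is named there EµMAR-deficient. Per the labels the NS cells were also cultured, whereas the methods, for other RNA of the same lines, describe cells taken before and after stimulation. Which of these holds for the small RNA libraries is not known here. Nothing says of the small RNA libraries whether those of a group came from separate cultures. For other RNA of the same lines the paper reports independent experiments. If the small RNA cultures were not separate, p-values measure only the spread between these pools, which may in part be technical.

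MicroRNAs are cut as short duplexes from a hairpin, and either arm can be loaded into an Argonaute protein, where bases 2 to 8, the seed, pair with target messenger RNAs. miR-28 lies in an intron of Lpp and is known from germinal-centre B-cells and as a microRNA lost in B-cell lymphomas that arise from them, whereas miR-151 lies in an intron of Ptk2, the gene of focal adhesion kinase. miR-708 is a relative of miR-28 in an intron of another gene, and miR-28b and miR-28c are further mouse copies.

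In the mm10 build (GRCm38) miR-28a-5p is at chr16:24827868-24827889 and miR-28a-3p at chr16:24827908-24827929, both on the plus strand in an intron of Lpp (ENSMUSG00000033306, chr16:24393507-24992578, plus strand). miR-151-5p is at chr15:73254855-73254875 and miR-151-3p at chr15:73254820-73254840, both on the minus strand in an intron of Ptk2 (ENSMUSG00000022607, chr15:73205102-73423280, minus strand), and the same stretch is intronic in the antisense gene 1700085D07Rik on the plus strand. Both loci are thus read in the sense of their host genes.

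The mature sequences are shown to set the arms and their relatives side by side. They are from RefSeq (GRCm38.p6), 5′ to 3′, with the seed in capitals, and cover 2 of the 4 members and 3 of the 4 relatives, without miR-151-5p, miR-151-3p and miR-28c.
miR-28a-5p: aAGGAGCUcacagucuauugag
miR-28b: aGGAGCUCacaaucuauuuag
miR-708-5p: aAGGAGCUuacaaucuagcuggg
miR-28a-3p: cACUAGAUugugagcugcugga
miR-708-3p: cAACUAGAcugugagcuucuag
miR-28a-5p and miR-708-5p had the same seed, and no other mature microRNA of the RefSeq table had the seed of miR-28a-5p. The seed of miR-28b was shifted by a base, although the run AGGAGCUCACA of 11 bases was common to miR-28a-5p, from base 2, and miR-28b, from base 1. miR-28a-3p and miR-708-3p had different seeds and shared the run UGUGAGCU of 8 bases behind them.

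Depth was 3482540.0 to 18144016 counts per library, of which the microRNA class took 51.4% to 82.1%. A member had 1376 or more counts in every library. The spread between libraries, which edgeR estimated as a biological coefficient of variation, was 69.7% over the 8 *wt* and 3′RR-deficient libraries. All 5 microRNAs of a list taken as lymphoid markers (miR-150-5p, both arms of miR-142a, miR-181a-5p and miR-155-5p) were detected in every library, at a summed level of 87970.0 to 255700.0 CPM, where CPM is the read count scaled to a common library size, that of the microRNA features, with TMM factors set over the 10 libraries. How far each of them is confined to lymphoid cells was not tested. The second NS libraries of *wt* and of 3′RR-deficient cells stood apart from the first ones in a like way: over the 720 features tested, the log2 difference of replicate 2 from replicate 1 correlated between the genotypes with r = 0.759 without LPS and 0.171 with LPS. They were also the 2 libraries with the fewest counts, 3482540.0 and 3756662, and the part of depth in this difference was not tested. Values without these libraries are given beside the LPS difference over both genotypes, the Eµ comparison and the read ratios.

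miR-151-5p was the most read of the members, and its level was lower in every LPS library than in every NS library. In NS cells it was at 2056 and 1732 CPM in *wt*, 2016 and 2303 in 3′RR-deficient cells and 2411 in Eµ-deficient cells. In LPS cells it was at 1043 and 1267 CPM in *wt*, 783 and 1243 in 3′RR-deficient cells and 1188 in Eµ-deficient cells. The 5 LPS libraries were all below the 5 NS libraries, as for 4.45% of the 988 features tested over the 10 libraries, while the genotypes lay within each other's range or close to it. The group means were 1894 ± 229 CPM (SD, n = 2) in *wt* NS and 1155 ± 158 in *wt* LPS, and 2160.0 ± 203 and 1013 ± 325 in 3′RR-deficient cells.

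miR-28a-3p, the other arm of the miR-28a hairpin, followed the same order in *wt* and 3′RR-deficient cells. In NS cells it was at 1149 and 1034 CPM in *wt* and at 1266 and 919 CPM in 3′RR-deficient cells, against 641 and 514 CPM in *wt* and 797 and 444 CPM in 3′RR-deficient cells with LPS. The 4 NS libraries were all above the 4 LPS libraries of these genotypes. The Eµ-deficient libraries were at 635 CPM without and 268 CPM with LPS, so with them the conditions overlapped. The first of these values was below the 4 other NS libraries, and the second was below all 8 other libraries.

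miR-28a-5p, the arm that carries the miR-28 seed, differed more between the NS libraries than between the conditions. In *wt* it was at 1012 and 458 CPM without and 655 and 669 CPM with LPS. In 3′RR-deficient cells it was at 1506 and 571 CPM without and 778 and 1146 CPM with LPS. The first NS library of each genotype was high, the second was low, and the LPS libraries lay between the NS libraries of their genotype, so the conditions overlapped. In Eµ-deficient cells miR-28a-5p was at 323 CPM without and 167 CPM with LPS, which was lower than in all 8 other libraries.

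miR-151-3p, the partner of miR-151-5p, also split the NS libraries by replicate, in the opposite sense. It was at 612 and 1571 CPM in *wt* NS and at 695 and 1970.0 CPM in 3′RR-deficient NS cells, and the 4 LPS libraries of these genotypes were close together at 668, 659.8, 718 and 696 CPM. Here the second NS library was high in both genotypes, and the first NS libraries were at the level of the LPS libraries. In Eµ-deficient cells it was at 539 CPM without and 319.6 CPM with LPS, again lower than in all 8 other libraries.

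**Figure D1:**
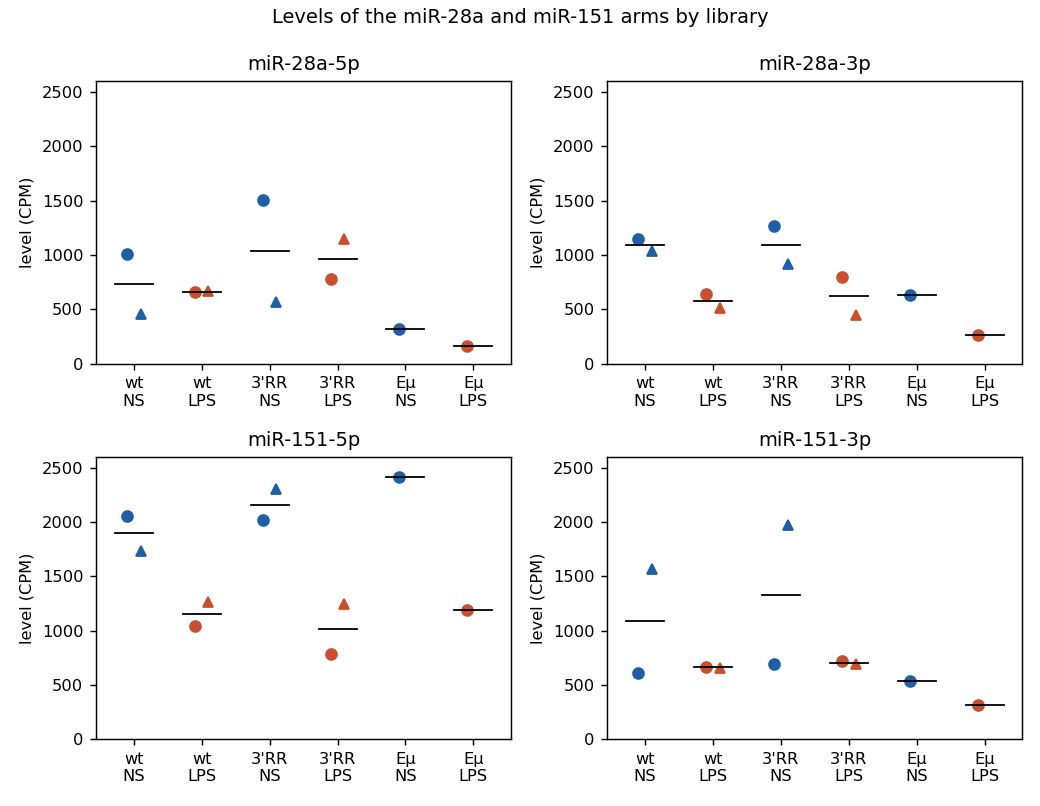
Level of each arm in CPM of the microRNA class (vertical axis, linear from 0) for the 10 libraries by genotype and condition. Circles are replicate 1, triangles replicate 2, blue NS, red LPS, and bars group means. miR-151-5p spans 1732 to 2411 CPM in NS and 783 to 1267 CPM in LPS libraries, without overlap, while miR-28a-5p and miR-151-3p differ between the NS replicates.

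Replicate 2 minus replicate 1 of the NS libraries was -1.14 in *wt* and -1.40 in 3′RR-deficient cells for miR-28a-5p, on the log2 scale of CPM + 1. For miR-151-3p this difference was 1.36 and 1.50, for miR-28a-3p -0.15 and -0.46, and for miR-151-5p -0.25 and 0.19. Thus, 1 arm of each hairpin differed by more than a factor of 2 between the second and first NS library of a genotype and its partner by less. Across the mature microRNAs with a sequence, the same difference had a slope on GC content, per 10% GC, of 0.928 in *wt* and 0.739 in 3′RR-deficient NS cells, against -0.211 and -0.174 with LPS. The part of GC content in the arm levels was not tested beyond the fits with a GC correction given below.

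The order of the levels was led by miR-151-5p, which was first of the members in 9 of 10 libraries and second in replicate 1 of the 3′RR-deficient LPS cells, where miR-28a-3p was at 797 CPM and miR-151-5p at 783 CPM. In NS libraries the mean was 2104 ± 266 CPM (SD, n = 5) for miR-151-5p, 1077 ± 651 for miR-151-3p, 1001 ± 242 for miR-28a-3p and 774 ± 484 for miR-28a-5p. The other levels did not differ beyond their spread: miR-151-3p was above miR-28a-3p in 2 of 5 libraries, and miR-28a-3p above miR-28a-5p in 4 of 5. With LPS the means were 1105 ± 199.9, 683 ± 350.1 for miR-28a-5p, 612 ± 165 for miR-151-3p and 533 for miR-28a-3p, whose libraries spanned 268 to 797 CPM, and only miR-151-5p was above its neighbour in 5 of 5 libraries. Among the 1302 mature microRNAs miR-151-5p ranked between 47 and 82 by library, miR-28a-3p between 61 and 110, miR-28a-5p between 70 and 127 and miR-151-3p between 51 and 103. The mature arms are 21 or 22 bases long, so reads stand for molecules alike in length, but how well each sequence is ligated into a library was not measured.

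The first comparison asked how the members answered to LPS. Over *wt* and 3′RR-deficient cells the fitted log2 difference of LPS from NS was -0.92 (SE 0.37, 95% interval -1.74 to -0.11, adjusted p = 0.0939) for miR-151-5p and -0.84 (SE 0.41, -1.74 to 0.06, adjusted p = 0.163) for miR-28a-3p in edgeR's quasi-likelihood test on the 8 libraries. It was -0.83 (SE 0.48, -1.89 to 0.22, adjusted p = 0.242) for miR-151-3p and -0.14 (SE 0.44, -1.10 to 0.83, adjusted p = 0.839) for miR-28a-5p. All 4 estimates were below 0, with a median of -0.84 against 0.07 over the 720 features tested.

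No member passed the threshold (adjusted p under 0.05, Benjamini-Hochberg over all features tested), 0 of 4, whereas 21.8% of all features did, 95 higher and 62 lower with LPS. The balance of higher and lower calls turned with the processing, to 65 and 67 among mature microRNAs alone and 86 and 94 with all features of the table. It was 65 and 91 with a correction for GC content. That fit covered only the 501 tested features with a sequence, so the correction and the feature set changed together. At an unadjusted p under 0.05 the count was 1 of 4, miR-151-5p, with 36.7% of all features. DESeq2's Wald test called 2 of 4, miR-151-5p at -0.99 (adjusted p = 0.00644) and miR-28a-3p at -0.90 (adjusted p = 0.0472), and 34.3% of all features. Both of these members had all 4 LPS libraries below all 4 NS libraries, as had 12.9% of all features tested. Without the second NS libraries, an alternative chosen after the data were seen, edgeR gave -1.01 (adjusted p = 0.0271) for miR-151-5p, -1.07 (adjusted p = 0.0395) for miR-28a-3p, -0.72 (adjusted p = 0.0987) for miR-28a-5p and -0.01 (adjusted p = 0.989) for miR-151-3p, and called 26.3% of all features. With a minimum of 10 CPM edgeR called 1 of 4, miR-151-5p, and 37.3% of all features, and with a replicate block within condition 3 of 4, all but miR-28a-5p, and 46.7%. The calls thus differed between fits, by the test, the filter, the block and the second NS libraries, and the estimates of miR-28a-5p and miR-151-3p moved with those libraries.

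Within *wt* cells the LPS difference was -0.68 (adjusted p = 0.534) for miR-151-5p, -0.86 (adjusted p = 0.474) for miR-28a-3p, -0.72 (adjusted p = 0.612) for miR-151-3p and -0.07 (adjusted p = 0.959) for miR-28a-5p in edgeR's test. Within 3′RR-deficient cells it was -1.17 (adjusted p = 0.315), -0.82 (adjusted p = 0.533), -0.95 (adjusted p = 0.533) and -0.20 (adjusted p = 0.881) in the same order. Without a replicate block no member was called in either genotype by edgeR (0 of 4, and 0 of 4 at an unadjusted p under 0.05) or by DESeq2 (0 of 4), where edgeR called 0.694% of all features in *wt* and 0.972% in 3′RR-deficient cells. At the unadjusted p these shares were 21.7% and 19.3%, and with DESeq2 14.3% and 13.5%. With a replicate block within condition, however, edgeR called 1 of 4 in 3′RR-deficient cells, miR-151-5p (-1.18, adjusted p = 0.0132), and 25.4% of all features, and with that block and a GC correction miR-28a-3p in *wt* (-0.998, adjusted p = 0.0222) and 30.1%. In the single pair of Eµ-deficient libraries, which has no replicate, LPS minus NS was -1.02 for miR-151-5p, -1.24 for miR-28a-3p, -0.95 for miR-28a-5p and -0.75 for miR-151-3p on the log2 scale of CPM + 1.

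Whether the LPS difference itself changed with the 3′RR was tested by an interaction term. It was -0.50 (95% interval -2.33 to 1.33) for miR-151-5p, 0.04 (-1.99 to 2.07) for miR-28a-3p, -0.13 (-2.29 to 2.03) for miR-28a-5p and -0.22 (-2.56 to 2.11) for miR-151-3p, with an adjusted p of 1.00 for each. edgeR and DESeq2 each called 0 of 4 members and 0% of all features, and 0 of 4 members had an unadjusted p under 0.05, against 0.694% of all features. The intervals include differences of more than a factor of 2 either way.

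**Figure D2:**
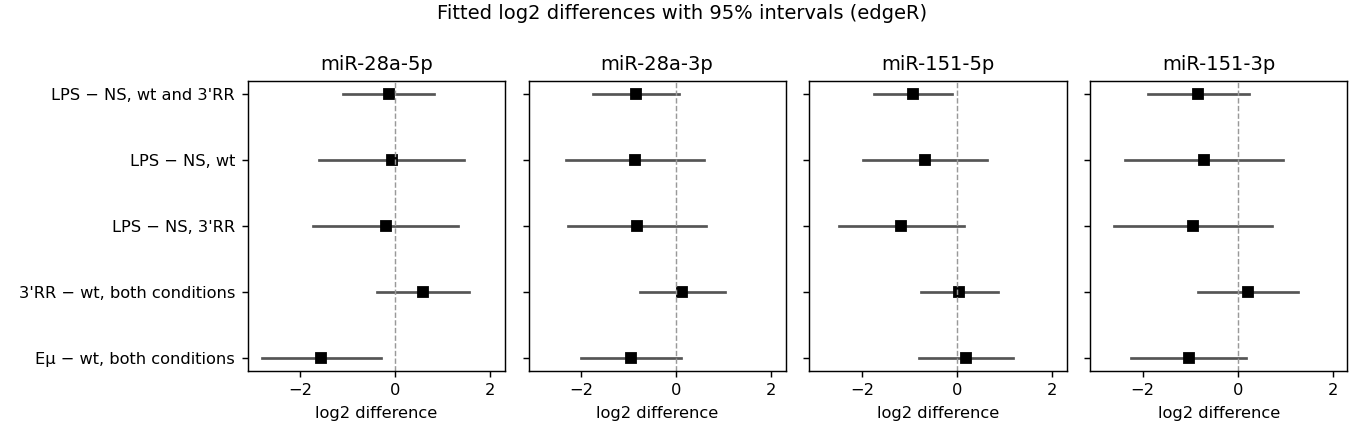
Fitted log2 differences (horizontal axis) of the 4 arms with 95% intervals from edgeR, for LPS minus NS over both genotypes and in each, and for 3′RR-deficient or Eµ-deficient minus *wt* cells over both conditions. Squares are estimates and the dashed line is no difference. The LPS interval of miR-151-5p (-1.74 to -0.11) and the Eµ interval of miR-28a-5p (-2.80 to -0.30) lie below 0.

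Cells other than B-cells may bring microRNAs of their own, and 8 markers of such cells were followed (miR-223-3p of myeloid cells, miR-451a, miR-144-3p and miR-486a-5p of erythroid cells, miR-126a-3p of endothelium, miR-143-3p and miR-145a-5p of stroma and miR-122-5p of hepatocytes). Their summed level was 3156 to 7881 CPM in the 4 NS libraries of *wt* and 3′RR-deficient cells and 293 to 1121 CPM in the 4 LPS libraries, and 13380.0 and 4907 CPM in the Eµ-deficient NS and LPS libraries. miR-122-5p was at 0 counts in 3 libraries. The share of all features called by edgeR with LPS was 21.8%, and 26.3% without the second NS libraries. With LPS 8 of 8 had a negative estimate and 4 of 8 passed edgeR's test (miR-223-3p, miR-486a-5p, miR-143-3p and miR-145a-5p), and without the second NS libraries 8 of 8 and 6 of 8, with miR-451a and miR-144-3p added, so these levels moved with the same condition as those of miR-151-5p and miR-28a-3p. Their part in the members' levels was not tested, and in bulk libraries fewer cells of a type and less RNA per cell cannot be told apart.

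In a list of 10 microRNAs of B-cell activation and differentiation, edgeR called 3 higher and 3 lower with LPS over both genotypes. DESeq2 called 5 higher and 3 lower, with miR-146a-5p and miR-21a-5p added, and edgeR without the second NS libraries 4 higher and 3 lower, with miR-21a-5p added. Of all features these fits called 21.8%, 34.3% and 26.3% in this order. In the fit of all libraries edgeR called 0 against *wt* in either deficient line (1 of 10 had an unadjusted p under 0.05 and was called by DESeq2, miR-125b-5p, in Eµ-deficient cells, also by edgeR without the second NS libraries). miR-155-5p, which is induced in activated B-cells, rose by 2.76, miR-148a-3p, known from plasma cell differentiation, by 3.59 and miR-17-5p, of the proliferation-linked miR-17~92 cluster, by 3.14 on the log2 scale. miR-150-5p, a microRNA of resting lymphocytes, fell by 2.45, miR-181a-5p by 2.31 and miR-125b-5p by 3.24. Without the second NS libraries the estimates were 2.72 for miR-155-5p, 2.67 for miR-148a-3p, 2.26 for miR-17-5p, -2.36 for miR-150-5p, -1.91 for miR-181a-5p and -2.89 for miR-125b-5p, so that those of miR-148a-3p and miR-17-5p were smaller by a factor of more than 1.5 in fold. The size of the members' estimates was below that of each of these 6, which were picked because edgeR called them for this difference. Of the list's other microRNAs, miR-181b-5p was at -0.39, miR-146a-5p at 1.32, miR-21a-5p at 2.22 and miR-217-5p at -3.75.

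Next, 3′RR-deficient and *wt* cells were compared to see what loss of the 3′RR did to the members. Over both conditions the log2 difference of 3′RR-deficient from *wt* cells was 0.59 (SE 0.44, 95% interval -0.38 to 1.55) for miR-28a-5p, 0.13 (-0.76 to 1.03) for miR-28a-3p, 0.05 (-0.76 to 0.85) for miR-151-5p and 0.22 (-0.83 to 1.27) for miR-151-3p, each with an adjusted p of 0.997 in edgeR's test. The call was 0 of 4 by edgeR, 0 of 4 by DESeq2 and 0 of 4 at an unadjusted p under 0.05, where the shares of all features were 0.139%, 0.278% and 2.92%. Over both conditions the libraries of these genotypes overlapped for miR-28a-5p, at 458 to 1012 CPM in *wt* and 571 to 1506 CPM in 3′RR-deficient cells. With LPS alone it was at 655 and 669 CPM in *wt* and at 778 and 1146 CPM in 3′RR-deficient cells. Between libraries of the same number, 3′RR-deficient minus *wt* was 0.57 and 0.32 without and 0.25 and 0.77 with LPS, as log2 of CPM + 1. How often other features split in this way was not counted.

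Without LPS the difference between these genotypes was 0.65 for miR-28a-5p, 0.11 for miR-28a-3p, 0.30 for miR-151-5p and 0.33 for miR-151-3p, and with LPS it was 0.52, 0.15, -0.20 and 0.11 in this order, all with an adjusted p of 1.00 in edgeR's test. In both conditions 0 of 4 members and 0% of all features were called, 0 of 4 members had an unadjusted p under 0.05 and DESeq2 called 0 of 4. Of all features 1.25% without and 2.08% with LPS had such a p, and DESeq2 called 0.139% and 0.278%. The 95% interval of miR-28a-5p reached from -0.88 to 2.18 without and from -1.01 to 2.05 with LPS, which includes differences of a factor of 2 in either condition.

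The last comparison set the 2 Eµ-deficient libraries against *wt*, in a fit of all 10 libraries over both conditions that tested 988 features. Eµ-deficient cells had 1 library per condition and no replicate spread of their own. The fit thus takes them to vary, and to answer to LPS, like the other genotypes. The estimates were -1.55 (SE 0.59, 95% interval -2.80 to -0.30, adjusted p = 0.263) for miR-28a-5p, -1.04 (-2.25 to 0.17, adjusted p = 0.516) for miR-151-3p, -0.94 (-1.99 to 0.11, adjusted p = 0.498) for miR-28a-3p and 0.19 (-0.79 to 1.17, adjusted p = 0.899) for miR-151-5p in edgeR's test. The median was -0.99 for the members and -0.17 for all features tested.

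No member was called by edgeR, 0 of 4, with 1.62% of all features called, 14 higher and 2 lower. Only miR-28a-5p had an unadjusted p under 0.05, 1 of 4, against 11.4% of all features. DESeq2 called 1 of 4, the same arm, at -1.41 (adjusted p = 0.0422), and 5.77% of all features. Without the second NS libraries miR-28a-5p was at -1.50 (adjusted p = 0.00809), miR-28a-3p at -0.66 (adjusted p = 0.329), miR-151-3p at -0.30 (adjusted p = 0.683) and miR-151-5p at 0.45 (adjusted p = 0.421), with 7.43% of all features called. With a correction for GC content miR-28a-5p was at -1.54 (adjusted p = 0.0412), with 3.5% called. With a replicate block within condition edgeR called 2 of 4, both arms of miR-28a, and 10.6% of all features. Leaving out the Eµ-deficient LPS library brought its estimate to -0.93 and leaving out the NS one to -2.01.

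In each condition, 3 of the arms were lower in the Eµ-deficient library than in the 4 others of that condition, the same 3 in both. Of all features 16.1% were lower without LPS, 20.3% with LPS and 5.87% in both. In both Eµ-deficient libraries miR-28a-5p and miR-151-3p were lower than in the 8 others, 2 of 4 members and 2.73% of all features. By contrast, miR-151-5p was the highest of all libraries without LPS and had 2 of 4 above it with LPS. Against the *wt* mean the single Eµ-deficient library was at -1.18 without and -1.98 with LPS for miR-28a-5p, -0.78 and -1.11 for miR-28a-3p, -1.02 and -1.05 for miR-151-3p and 0.35 and 0.04 for miR-151-5p, on the log2 scale of CPM + 1. The summed level of the 8 markers of other cells was highest in the Eµ-deficient library in either condition, and 7 of 8 had a positive estimate against *wt*, with a median of 2.31. Of these 8, 0 were called by edgeR, 5 had an unadjusted p under 0.05, and DESeq2 called 4 (miR-223-3p, miR-486a-5p, miR-143-3p and miR-145a-5p). The shares of all features were 1.62%, 11.4% and 5.77% in this order. Of the lymphoid markers 4 of 5 had a negative estimate, with a median of -0.44, and 0 of 5 were called by edgeR or DESeq2 or had an unadjusted p under 0.05. Without the second NS libraries edgeR called 3 of the 8 markers of other cells (miR-223-3p, miR-451a and miR-486a-5p), and the lymphoid markers had 2 of 5 negative estimates and 0 calls. The part of these cells was not tested, and total count scaling, which moved the median of all features from -0.17 to 0.20, gave -1.21 for miR-28a-5p, -0.68 for miR-28a-3p, -0.85 for miR-151-3p and 0.48 for miR-151-5p.

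**Figure D3:**
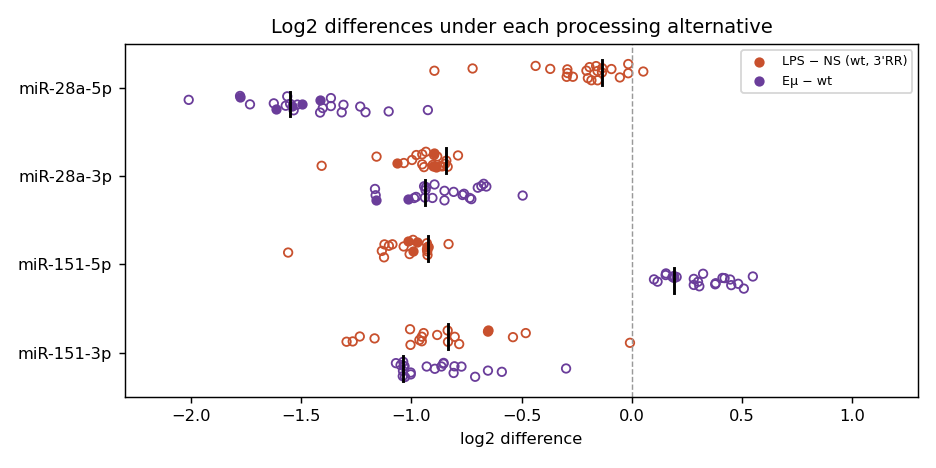
Log2 differences (horizontal axis) of each arm under the processing alternatives and with each library left out, for LPS minus NS (red) and Eµ-deficient minus *wt* (violet). Filled points passed an adjusted p of 0.05, open points did not, and black bars mark the values of the text. miR-28a-5p stays below -0.92 in the Eµ comparison, while its LPS values reach from -0.90 to 0.05.

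Ratios of reads within a library do not depend on its scaling, and 4 of them were followed, 2 between the arms of a hairpin and 2 between the loci. miR-28a-5p to miR-28a-3p was 0.443 to 1.19 in the 5 NS libraries and 0.625 to 2.58 in the 5 LPS libraries. As log2 ratios its values were -0.18 and -1.17 in *wt* NS, 0.25 and -0.69 in 3′RR-deficient NS, 0.03 and 0.38 in *wt* LPS, and -0.04 and 1.37 in LPS-stimulated 3′RR-deficient cells, with -0.97 and -0.68 in the Eµ-deficient NS and LPS libraries. Neither arm of miR-28a was the main one throughout: the 5p arm had more reads in 4 of 10 libraries, 3 of them with LPS.

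miR-151-5p had more reads than miR-151-3p in all 10 libraries, by a ratio of 1.10 to 4.47 in NS and 1.09 to 3.72 in LPS cells. The log2 ratio was 1.75 and 0.14 in *wt* NS, 1.54 and 0.23 in 3′RR-deficient NS, 0.64 and 0.94 in *wt* LPS, 0.12 and 0.84 in LPS-stimulated 3′RR-deficient cells, and 2.16 and 1.89 in the Eµ-deficient libraries. The latter were the highest of their condition, and the second NS libraries of the other genotypes were low. Likewise, the log2 ratio of miR-28a-5p to miR-151-5p was lowest in the Eµ-deficient libraries, at -2.90 and -2.83, against -2.01 to -0.42 in the other NS and -0.92 to -0.01 in the other LPS libraries.

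Within each genotype the ratio of miR-28a-5p to miR-151-5p was higher with LPS, by 0.75 on the log2 scale over the 10 libraries (exact permutation test within genotype, two-sided, p = 0.0278, adjusted p = 0.111 over the 4 ratios). This p is the smallest that the 72 arrangements allow. miR-28a-5p to miR-28a-3p was higher with LPS by 0.77 (exact p = 0.0833, adjusted p = 0.167), and the others were at -0.27 for miR-151-5p to miR-151-3p and -0.30 for miR-28a-3p to miR-151-3p, each with an exact p = 0.528 and an adjusted p of 0.528. Over the 8 *wt* and 3′RR-deficient libraries miR-28a-5p to miR-151-5p was at 0.91 (exact p = 0.0556, the smallest that 36 arrangements allow, adjusted p = 0.222) and miR-28a-5p to miR-28a-3p at 0.88 (exact p = 0.167, adjusted p = 0.333). Without the second NS libraries the difference within genotype was 0.23 for miR-28a-5p to miR-151-5p, -0.80 for miR-151-5p to miR-151-3p and -0.95 for miR-28a-3p to miR-151-3p, each with an exact p = 0.0556, the smallest that 18 arrangements allow, and an adjusted p of 0.0741, and 0.37 for miR-28a-5p to miR-28a-3p (exact p = 0.389, adjusted p = 0.389). With each library left out in turn, miR-28a-5p to miR-151-5p ranged from 0.44, without the second 3′RR-deficient NS library, to 0.93, without the first, and miR-28a-5p to miR-28a-3p from 0.53 to 0.96. The other ratios came nearest to 0 without the first NS library of a genotype, at -0.0461 for miR-151-5p to miR-151-3p in *wt* and -0.0189 for miR-28a-3p to miR-151-3p in 3′RR-deficient cells, and reached -0.54 and -0.62 without a second one.

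**Figure D4:**
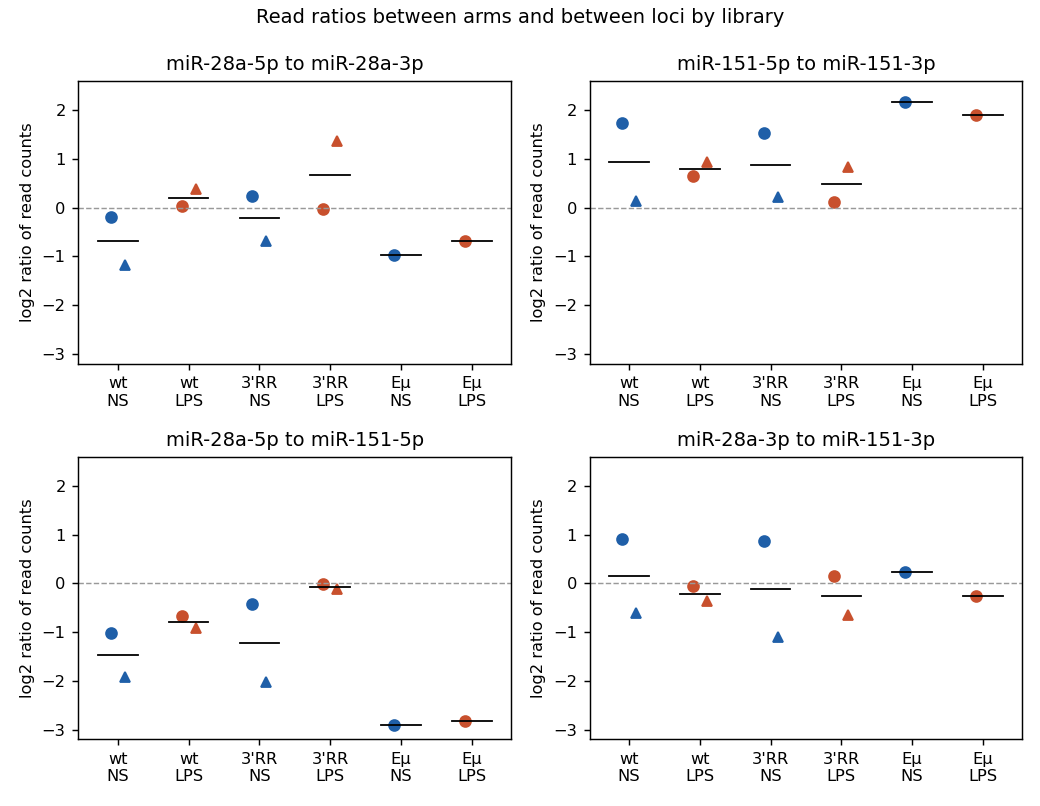
Log2 ratio of read counts (vertical axis) between the arms of each hairpin and between the loci, by library, with symbols as in the plot of levels. The ratio of miR-151-5p to miR-151-3p is highest in the Eµ-deficient libraries (2.16 and 1.89), where that of miR-28a-5p to miR-151-5p is lowest (-2.90 and -2.83).

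The relatives were rare beside the members. miR-28b was at 1.04 to 11.6 CPM, miR-28c at 1.93 to 15.9 CPM, miR-708-5p at 0 to 21.0 CPM and miR-708-3p at 0.602 to 8.76 CPM. Together miR-28b and miR-28c made up 1.05% to 3.68% of the reads of miR-28a-5p and these copies. How reads that match several copies were assigned is not given in the sources used here, so the split between copies is uncertain.

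miR-708-5p, which had the seed of miR-28a-5p, made up 6.11% of their summed reads in the Eµ-deficient NS library (Wilson 95% interval 5.34 to 6.97%) and 1.90% in the Eµ-deficient LPS library (1.38 to 2.61%). In the other libraries it made up 0.672% or less, and it had 0 counts in the second *wt* LPS library and the first 3′RR-deficient LPS library, for which the floor of 3 counts gives shares of up to 0.0675% and 0.0853% and the Wilson 95% interval upper limits of 0.0863% and 0.109%. Its level was 21.0 CPM in the Eµ-deficient NS library and at most 6.85 CPM in any *wt* library. Of the 4 relatives, 0 were called by edgeR or DESeq2 or had an unadjusted p under 0.05 in any comparison over all libraries. Their LPS estimates over both genotypes were -0.91 for miR-28b, -0.17 for miR-28c, -2.55 for miR-708-5p and -1.27 for miR-708-3p. Without the second NS libraries they were -1.38, -0.65, -3.25 and -1.78 in this order, and miR-708-5p was called by edgeR (adjusted p = 0.0497). Against *wt* the Eµ-deficient libraries gave 2.45 for miR-708-5p (95% interval -0.11 to 5.01, adjusted p = 0.464).

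Reads on the hairpin transcripts were close to none. The Mir28a transcript (ENSMUST00000083560) had 0 to 14 counts and the Mir151 transcript (ENSMUST00000083678) 0 to 16 counts per library, the latter 16 in the Eµ-deficient LPS library and 0 to 3 in the others. Neither passed the filter of the 8-library fits, and in the fit of 10 libraries neither was called against *wt* by edgeR or had an unadjusted p under 0.05 (0.47 and 2.53 on the log2 scale). DESeq2 gave no adjusted p for either transcript, so it could not call them.

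The microRNAs whose levels were most like each member over the 10 libraries differed from arm to arm. By Pearson's r of log2 CPM, among 155 mature microRNAs with a mean level of 100 CPM or more, miR-28a-5p was nearest to miR-30a-3p (0.94), miR-30e-3p (0.92) and miR-1843b-5p (0.88). miR-28a-3p was nearest to miR-139-5p (0.89), miR-378c (0.89) and miR-378a-3p (0.88), and miR-151-5p to miR-652-3p (0.88), miR-23b-3p (0.87) and the myeloid marker miR-223-3p (0.86). miR-151-3p was nearest to miR-148b-3p (0.93), miR-1198-5p (0.89) and let-7d-3p (0.88). No member was among these for another member: the arms of miR-28a had r = 0.60 and those of miR-151 r = 0.33. Between the loci r ranged from 0.02 for miR-28a-5p with miR-151-5p to 0.60 for miR-28a-3p with miR-151-3p. These values are descriptions over 10 libraries that share their depth, condition and replicate differences with both microRNAs of a pair.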

How the data were processed

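Small RNA libraries were prepared, per the labels, with the NextFlex small RNA kit, 17 PCR cycles and reads of 75 bases. The deposited values are whole-number counts per feature and library, without normalization, made by the authors. The submitters' processing notes name cutadapt 1.2.1, Bowtie2 and the mm10 build, while the counting program and its handling of reads with several matches are not given in the sources used here. Amplified reads carry no molecular identifiers here and are no independent molecules, so that intervals and floors cover counting error only.

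Groups came from the sample titles, which do not say whether libraries of the same replicate number share animals. No fit paired the NS and LPS libraries of a genotype by number. The microRNA class was analysed with edgeR 4.0.16 in R 4.3.3 (TMM scaling, filterByExpr by group, two-sided quasi-likelihood F-test, Benjamini-Hochberg adjustment over all features tested, threshold 0.05). The 8 *wt* and 3′RR-deficient libraries were fitted with a mean per group, or with additive terms for genotype and condition for comparisons over both, and the 10 libraries with additive terms for the Eµ comparison. The fit was tested on simulated data with known changes. These had the same spread for all features and no difference shared by replicate number. They cannot show how the difference between the NS replicates acts on the calls. Read ratios used a pseudocount of 0.5 and an exact permutation test of the mean difference within genotype. Member levels, as log2 of CPM + 1, were put to the same test. Where a genotype had unequal numbers of NS and LPS libraries, its difference was weighted as in a fit with genotype terms, a choice made after the data were seen, and a genotype with 1 condition left had no weight. Log2 values of single libraries used CPM + 1, and shares Wilson 95% intervals. A count of 0 was given a floor of 3 counts.

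Gene positions are from GENCODE M21 and sequences from RefSeq. The names given were set by rule: the 4 members, their 4 relatives, the 2 hairpin transcripts, the 3 most alike microRNAs by Pearson's r and, of the list of 10, those called. The members, lists and rules were chosen with earlier results of these data known, so a pattern seen in those is not independent support. Alternatives were other scalings, filters, feature sets and sample sets, DESeq2 1.42.0, a replicate block, a GC correction, each library left out, a pseudocount of 5 and Spearman's rho. Leaving out both second NS libraries was added after the data were seen.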

Additional observations from a re-analysis of the deposited data

Results flagged for a closer look

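The hairpin transcript of Mir151 (ENSMUST00000083678), a row beside the mature arms, had 16 counts in the Eµ-deficient LPS library. It was looked at because this lies above the *wt* libraries, which had 0 or 1 count, and above the floor of 3 counts. In CPM of the microRNA class it was 1.40, against 1188 for miR-151-5p in the same library. Over both conditions its estimate against *wt* was 2.53 (edgeR, adjusted p = 0.796), and within LPS cells this group has 1 library and no test.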

How the results depend on the processing

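For LPS over both genotypes the call of 0 of 4 members became 1 with a minimum of 10 CPM in 2 libraries (miR-151-5p, -0.97, with 150 of 402 features called), 2 with DESeq2 (-0.99 for miR-151-5p, -0.90 for miR-28a-3p, 247 of 720), 2 without both second NS libraries (-1.01 and -1.07, 217 of 824), 3 with a replicate block within condition (-0.93, -0.90 and miR-151-3p at -0.65, 336 of 720) and 1 with that block and a GC correction (miR-28a-3p, -0.89, 230 of 501). For Eµ against *wt* it became 1 with DESeq2 (miR-28a-5p, -1.41, 57 of 988), 1 with the GC correction (-1.54, 23 of 658), 1 without both second NS libraries (-1.50, 71 of 955), 2 with the block within condition (-1.78, and miR-28a-3p at -1.16, 105 of 988) and 2 with block and GC correction (-1.62 and -1.02, 67 of 658). For LPS in *wt* 1 was called with block and GC correction (151 of 501), and for LPS in 3′RR-deficient cells 1 with the block within condition (183 of 720). The GC correction held only the 2 arms of miR-28a. Counting all features of the table brought miR-151-5p to -1.56 and miR-28a-3p to -1.41 with LPS, without a call. The cause of these shifts was not tested.

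The replicate difference was not shared across conditions: the correlation of replicate 2 minus 1 between groups was 0.759 within NS and 0.171 within LPS cells, so that the NS libraries of a number deviated together, and -0.334 to -0.0894 across conditions. A replicate block over all 8 libraries called 0 of 4 members (miR-151-5p at -0.93, miR-28a-3p at -0.90, miR-151-3p at -0.65, miR-28a-5p at -0.02 with LPS), and 156 of all features against 157. With this block miR-28a-5p in *wt* turned to 0.0027.

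No sign turned for a called estimate. LPS in *wt* was 0.20 for miR-151-3p without the second NS libraries. For 3′RR against *wt* over both conditions miR-151-5p was -0.020 with DESeq2 size factors, -0.0512 with total count scaling and -0.020 with DESeq2's test, and miR-28a-3p was -0.0035 with total count scaling and -0.0123 with block and GC correction. Without LPS miR-28a-3p was -0.0608 with DESeq2 size factors, -0.0020 with total count scaling, -0.0069 with the 10 CPM minimum, -0.0608 with DESeq2's test, -0.0079 with mature microRNAs alone, -0.14 with the GC correction and -0.12 with block and GC correction. With LPS total count scaling gave -0.0050 for miR-28a-3p and -0.0651 for miR-151-3p. The interaction of miR-28a-3p was -0.0030 with total count scaling, -0.0525 with all features, -0.0275 with the block within condition and -0.32 without the second NS libraries, and that of miR-28a-5p 0.0766 with DESeq2 size factors, 0.0767 with its test, 0.0020 with mature microRNAs alone, 0.0864 with the GC correction and 0.11 with block and GC correction.

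With each library left out 0 of 4 members were called in every comparison. The estimates of LPS over both genotypes ranged from -1.13 to -0.83 for miR-151-5p, -1.16 to -0.79 for miR-28a-3p, -1.29 to -0.48 for miR-151-3p and -0.44 to 0.0519 for miR-28a-5p. In *wt* those of miR-28a-5p and miR-151-3p ranged from -0.55 to 0.20 and -1.58 to 0.18, and in 3′RR-deficient cells that of miR-28a-5p from -0.86 to 0.47. For 3′RR against *wt* the ranges were -0.0431 to 0.19 for miR-151-5p, -0.10 to 0.28 for miR-28a-3p and -0.10 to 0.55 for miR-151-3p over both conditions, -0.10 to 0.44, -0.14 to 1.29 and -0.46 to 1.21 for miR-28a-3p, miR-28a-5p and miR-151-3p without LPS, and -0.36 to 0.0346, -0.46 to 0.65 and -0.01 to 0.31 for miR-151-5p, miR-28a-3p and miR-151-3p with LPS. The interaction ranged from -0.60 to 0.63, -0.73 to 0.69 and -1.07 to 0.60 for miR-28a-3p, miR-28a-5p and miR-151-3p.

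Features called among all tested ranged over the other alternatives from 132 to 336 (157 in the text) for LPS over both genotypes, 0 to 182 (5) in *wt*, 0 to 183 (7) in 3′RR-deficient cells, 1 to 10 (1) for 3′RR over both conditions, 0 to 1 without and 0 to 9 with LPS (0 each) and 12 to 156 (16) for Eµ. With each library left out they ranged from 71 to 163 for LPS over both genotypes, lowest without replicate 2 of *wt* LPS, 0 to 71 in *wt* (0 without the second *wt* NS or the first *wt* LPS library), 0 to 62 in 3′RR-deficient cells (0 without the second 3′RR-deficient NS or the first *wt* LPS library), both highest without the first 3′RR-deficient NS library, and from 1 to 33 for Eµ, lowest without the Eµ-deficient LPS library. By Spearman's rho 2 of the 3 most alike microRNAs stayed for miR-28a-5p and 1 for each other arm.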
